A study of Mus musculus with 12 samples.

Results

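Transcripts of 10 circadian clock genes, Per1, Per2, Per3, Nr1d1, Nr1d2, Dbp, Tef, Ciart, Npas2 and Clock, were followed in RNA sequencing libraries of mouse lung. They were taken by gene name from a table of 56980 genes, and all 10 were found and passed the filter on low counts. The genes were chosen because their levels had been seen to differ between single libraries of these data, above all in HBG 3, Model 2 and Control 4. Differences between libraries are therefore described here without a test, while comparisons of the 3 treatment groups were tested over all genes. Male C57BL/6 mice of 6 to 8 weeks were kept under 12 h of light and 12 h of dark, and each group had 4 libraries of polyadenylated RNA from whole lung. HBG mice received bleomycin, a drug that produces lung fibrosis, at 5 mg/kg into the trachea and were also given 7 g/kg of the herbal medicine Huashibaidu granules orally. The labels give the start of the granules both as a week before bleomycin and as day 7 after it, for 14 days. Model mice received bleomycin and water, and Control mice water, with no instillation described for them in the sample labels. The end of the experiment is given as day 28. At what hour lungs were collected the labels do not say.

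The mammalian clock is a feedback loop of transcription that runs in nearly every cell, lung included. CLOCK, or its paralogue NPAS2, pairs with BMAL1 (gene Arntl) and binds E-box sequences, which switches on the Per and Cry genes, whose proteins then inhibit that pair. A second loop runs through the nuclear receptors REV-ERB alpha and beta (Nr1d1 and Nr1d2), which repress Arntl, Npas2 and Clock at ROR elements that the ROR receptors use to activate them. CIART is another repressor of the CLOCK and BMAL1 pair. Through DBP, TEF and HLF, which bind D-boxes, the rhythm reaches output genes. In most tissues transcripts driven by E-boxes and by ROR elements therefore peak at different times of day.

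The sequences that these factors recognise can be read in the promoters of several of the genes, taken from RefSeq on build GRCm38.p6 as 250 bases before to 50 bases after each annotated start. RefSeq windows were found for 9 of the 10 genes, 13 windows in all, with none for Per2. Searched on both strands were the E-box CACGTG, its variant CACGTT, the D-box TTATGTAA and the ROR element, which is AGGTCA directly preceded by AANT. No matches overlapped in the windows described here. They occur in 7.15%, 4.68%, 0.938% and 0.219% of all 32851 promoter windows. Capitals mark the matches in 5 promoters, shown 5′ to 3′ because they hold the elements of the loops just described and belong to genes whose levels are compared in the text that follows.
Ciart, chr3:95882179-95882478, minus strand: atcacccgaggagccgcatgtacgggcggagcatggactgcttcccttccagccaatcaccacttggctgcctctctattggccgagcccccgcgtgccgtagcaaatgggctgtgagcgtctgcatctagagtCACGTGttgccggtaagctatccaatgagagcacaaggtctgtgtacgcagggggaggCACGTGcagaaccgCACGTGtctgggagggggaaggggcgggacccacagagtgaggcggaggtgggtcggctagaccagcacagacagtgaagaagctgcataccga
Per1, chr11:69098699-69098998, plus strand: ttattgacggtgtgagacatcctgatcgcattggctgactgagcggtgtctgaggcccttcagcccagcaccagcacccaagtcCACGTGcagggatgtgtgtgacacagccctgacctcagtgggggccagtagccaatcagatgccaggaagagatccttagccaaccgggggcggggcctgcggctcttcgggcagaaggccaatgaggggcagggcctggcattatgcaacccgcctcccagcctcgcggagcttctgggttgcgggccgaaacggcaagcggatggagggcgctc
Tef, chr15:81802423-81802722, plus strand: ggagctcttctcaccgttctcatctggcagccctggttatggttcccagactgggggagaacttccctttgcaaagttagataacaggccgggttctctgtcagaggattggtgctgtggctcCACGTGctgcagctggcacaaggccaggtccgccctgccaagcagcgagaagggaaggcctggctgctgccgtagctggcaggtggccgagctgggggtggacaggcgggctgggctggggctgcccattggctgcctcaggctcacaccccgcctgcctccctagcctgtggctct
Per3, chr4:151044616-151044915, minus strand: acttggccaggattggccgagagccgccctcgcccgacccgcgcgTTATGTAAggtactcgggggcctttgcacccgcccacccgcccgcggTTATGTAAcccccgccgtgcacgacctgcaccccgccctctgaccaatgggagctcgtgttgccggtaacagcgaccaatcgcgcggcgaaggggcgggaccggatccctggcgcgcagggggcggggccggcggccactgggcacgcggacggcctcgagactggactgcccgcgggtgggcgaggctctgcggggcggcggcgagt
Arntl, chr7:113207261-113207560, plus strand: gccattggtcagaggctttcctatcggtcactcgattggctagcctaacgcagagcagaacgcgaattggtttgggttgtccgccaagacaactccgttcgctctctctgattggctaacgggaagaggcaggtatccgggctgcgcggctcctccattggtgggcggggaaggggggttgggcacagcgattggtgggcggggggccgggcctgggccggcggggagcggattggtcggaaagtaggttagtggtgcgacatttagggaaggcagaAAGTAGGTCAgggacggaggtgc
The Ciart window held 3 E-boxes and the Per1 window 1, and both windows of Tef held 1 each. The Per3 window held 2 D-boxes and no E-box. The second Arntl window held 1 ROR element. Nr1d1 had 1 copy of CACGTT on the reverse strand. None of these letters was found in the windows of Dbp, Nr1d2, Npas2 or Clock, which says nothing of sites outside them.

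Depth was ample for all 10 genes. Library totals ranged from 17979863 to 20752001 estimated counts in HBG, 19230806 to 22622406 in Model and 18864759 to 27150787 in Control, and the 10 genes had between 78 and 7518 counts in any library. Lung identity was clear: the 6 epithelial markers Sftpc, Sftpb, Scgb1a1, Ager, Hopx and Foxj1 summed to 29951 to 68975 CPM in HBG, 34846 to 54080 in Model and 60783 to 82970 in Control. CPM here are counts scaled to library depth with TMM factors. Markers that lung should lack, from skeletal muscle and liver, summed to at most 98.6 CPM in any library. Cardiac muscle markers ranged from 340 to 3401 CPM in HBG, 351 to 3236 in Model and 849 to 5624 in Control. Their part in the results was not tested.

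Per kilobase of gene length, Tef was the most abundant of the 10 transcripts, at 74.8 ± 14.5 CPM per kb (SD, n = 12 libraries). Nr1d1 followed at 46.1 ± 18.4, Dbp at 39.95 ± 12.9, Nr1d2 at 33.3 ± 4.99 and Per1 at 28.7 ± 10.4 CPM per kb, an order in which neighbours lay within their spread. Per2 and Per3 were alike at 14.8 ± 4.92 and 14.2 ± 3.77 CPM per kb. Clock had 9.35 ± 1.502 and Ciart 7.13 ± 1.66 CPM per kb. Npas2 was lowest at 1.92 ± 0.754 CPM per kb. The 10 genes also varied unequally. The highest library exceeded the lowest by 4.41-fold for Per1, 4.06-fold for Nr1d1, 3.81-fold for Per2, 3.54-fold for Npas2, 2.71-fold for Dbp, 2.66-fold for Per3 and 2.502-fold for Ciart, but by 1.92-fold for Tef, 1.51-fold for Nr1d2 and 1.503-fold for Clock.

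**Figure D1:**
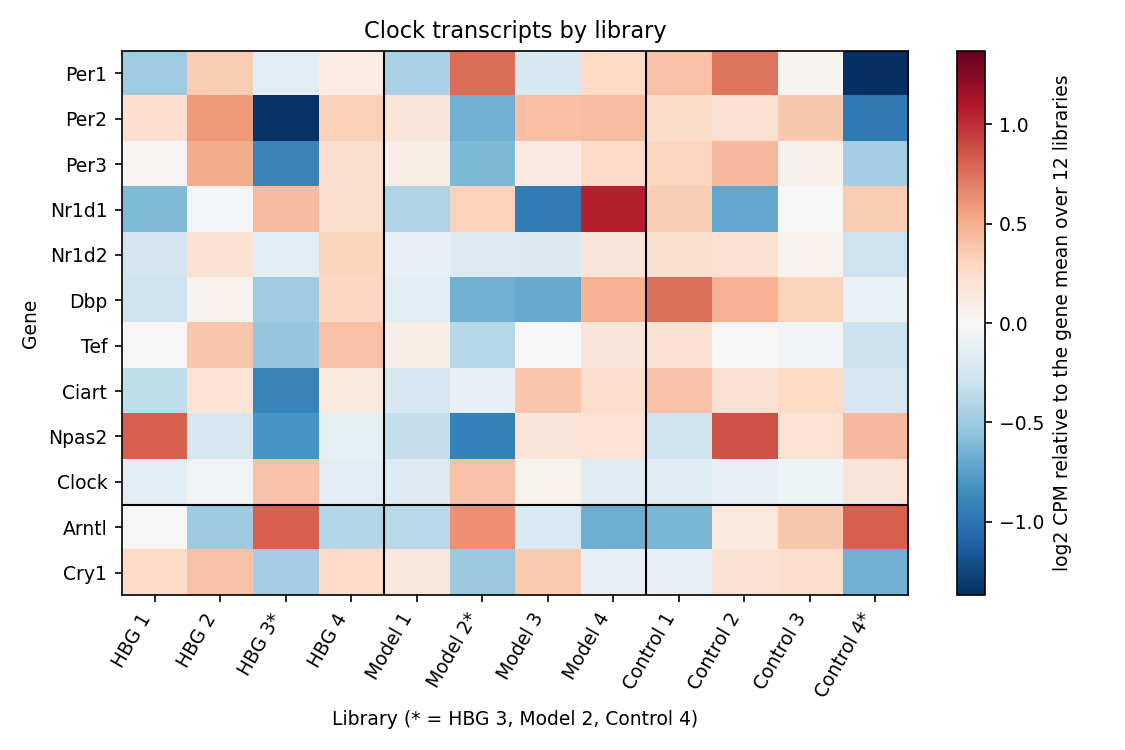
Level of each clock gene in each library, as log2 CPM relative to the gene's mean over the 12 libraries (colour), with genes down the page, libraries in group order across it, and Arntl and Cry1 below the line for reference. In HBG 3, Model 2 and Control 4 (asterisks) Per2 and Per3 are blue while Arntl is red. Clock and Nr1d1 are both paler red in all 3, and Npas2 is blue in HBG 3 and Model 2 and pale red in Control 4.

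Among the period genes, whose proteins form the inhibitory limb of the loop, Per2 showed the widest gap. Per2 (ENSMUSG00000055866) had 94.2, 120.5, 31.6 and 101 CPM in HBG 1 to 4, 91.0, 51.2, 107 and 108 CPM in Model 1 to 4 and 95.9, 92.9, 104 and 41.2 CPM in Control 1 to 4. One library of each group, HBG 3, Model 2 and Control 4, was thus low, at 31.6, 51.2 and 41.2 CPM, while the other 9 lay between 91.0 and 120.5 CPM. Per3 (ENSMUSG00000028957) had 82.9, 117, 43.9 and 95.8 CPM in HBG 1 to 4, 87.4, 53.5, 88.9 and 98.3 CPM in Model 1 to 4 and 101, 112, 85.5 and 59.4 CPM in Control 1 to 4. Again the same 3 libraries were lowest, at 43.9 to 59.4 CPM against 82.9 to 117 CPM in the other 9. Fewer cells of a type and less RNA per cell cannot be told apart in whole lung.

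Per1, which also responds rapidly to glucocorticoids and other stimuli, did not follow its paralogues. Per1 (ENSMUSG00000020893) had 88.5, 157, 111 and 133 CPM in HBG 1 to 4, 91.0, 211, 107 and 150.0 CPM in Model 1 to 4 and 164, 207, 127.7 and 48.0 CPM in Control 1 to 4. Control 4 was the lowest of the 12 libraries and Model 2 the highest, with HBG 3 between them. The ratio of Per1 to Per2 in CPM was 3.52 in HBG 3 and 4.13 in Model 2, but 1.16 in Control 4, within the 0.939 to 2.22 of the other 9 libraries. Of 8 glucocorticoid response genes, Tsc22d3 alone was likewise lowest in Control 4. It had 201 CPM there, 302 CPM in HBG 3 and 427 CPM in Model 2. Fkbp5 was lowest in Control 2, at 21.5 CPM, and Mt1 and Mt2 in HBG 3, at 28.9 and 10.3 CPM. The summed level of the 8, Tsc22d3 included, was 582 CPM in HBG 3, 972 CPM in Model 2 and 545 CPM in Control 4. It was 666 to 1325 CPM in the other 9. Immediate early genes summed to 714, 1112 and 875 CPM in these 3 libraries and reached 5493 CPM in Control 2, where Per1 was 207 CPM. The part of either list in the Per1 levels was not tested.

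The D-box binding factors are outputs of the E-box limb. Tef (ENSMUSG00000022389) had 299, 391, 207 and 397 CPM in HBG 1 to 4, 317, 229, 301 and 339.6 CPM in Model 1 to 4 and 347, 301, 292 and 244 CPM in Control 1 to 4. The lowest 3 values were those of HBG 3, Model 2 and Control 4, at 207, 228.5 and 244 CPM, against 292 to 397 CPM in the others. Dbp (ENSMUSG00000059824) had 57.3, 72.3, 49.8 and 85.3 CPM in HBG 1 to 4, 63.3, 44.3, 43.5 and 97.1 CPM in Model 1 to 4 and 118, 97.2, 86.7 and 65.9 CPM in Control 1 to 4. Model 3 was the lowest here, next to Model 2 and HBG 3, and Control 4 lay in the middle of the 12. Hlf, the third gene of this family, had 28.1, 30.004 and 26.5 CPM in HBG 3, Model 2 and Control 4 and 28.5 to 57.1 CPM in the others, so the ranges overlapped.

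The repressors of the second loop behaved differently again. Nr1d1 (ENSMUSG00000020889) had 77.0, 116, 158 and 136 CPM in HBG 1 to 4, 87.7, 146, 59.9 and 243 CPM in Model 1 to 4 and 148, 71.1, 116 and 148 CPM in Control 1 to 4. HBG 3, Model 2 and Control 4, at 146 to 158 CPM, were neither the highest nor low: Model 4 reached 243 CPM and Model 3 had 59.9 CPM. Nr1d2 (ENSMUSG00000021775) had 129 to 191 CPM in HBG, 134 to 174 CPM in Model and 126 to 179 CPM in Control, with Control 4 lowest. The ratio of Nr1d1 to Nr1d2 in CPM was 1.14 in HBG 3, 1.08 in Model 2, 1.17 in Control 4 and 1.40 in Model 4, and 0.401 to 0.823 in the other 8 libraries. Exons of Nr1d1 overlap Thra on the opposite strand, those of Dbp overlap Sphk2 and those of Tef overlap Gm17597, in GENCODE M21. The library kit keeps strand but the labels do not say whether the counting used it, so reads of such pairs may have been shared. Ciart (ENSMUSG00000038550), whose promoter held 3 E-boxes, had 10.5, 15.3, 7.08 and 14.8 CPM in HBG 1 to 4, 11.5, 12.4, 17.5 and 15.9 CPM in Model 1 to 4 and 17.7, 15.5, 16.2 and 11.4 CPM in Control 1 to 4. HBG 3 was the lowest of all, while Model 2 and Control 4 lay above HBG 1.

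Of the activators, Clock (ENSMUSG00000029238) had 62.1, 67.6, 91.4 and 62.0 CPM in HBG 1 to 4, 60.9, 91.6, 71.4 and 61.8 CPM in Model 1 to 4 and 61.8, 64.1, 66.4 and 78.2 CPM in Control 1 to 4. Here HBG 3, Model 2 and Control 4 were the highest 3, at 78.2 to 91.6 CPM, above the 60.9 to 71.4 CPM of the other 9. Arntl (ENSMUSG00000055116), the gene of BMAL1 and not 1 of the 10, had 9.64, 6.75, 16.9 and 7.26 CPM in HBG 1 to 4, 7.35, 14.8, 8.32 and 5.98 CPM in Model 1 to 4 and 6.19, 10.6, 12.5 and 17.0 CPM in Control 1 to 4. It too was highest in these 3 libraries, at 14.8 to 17.0 CPM against 5.98 to 12.5 CPM. Npas2 (ENSMUSG00000026077), the paralogue of Clock, had 13.4, 6.43, 4.30 and 6.92 CPM in HBG 1 to 4, 6.02, 3.93, 8.54 and 8.67 CPM in Model 1 to 4 and 6.19, 13.9, 8.70 and 10.4 CPM in Control 1 to 4. It was lowest in Model 2 and HBG 3, at 3.93 and 4.30 CPM, but above the middle in Control 4, at 10.4 CPM.

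**Figure D2:**
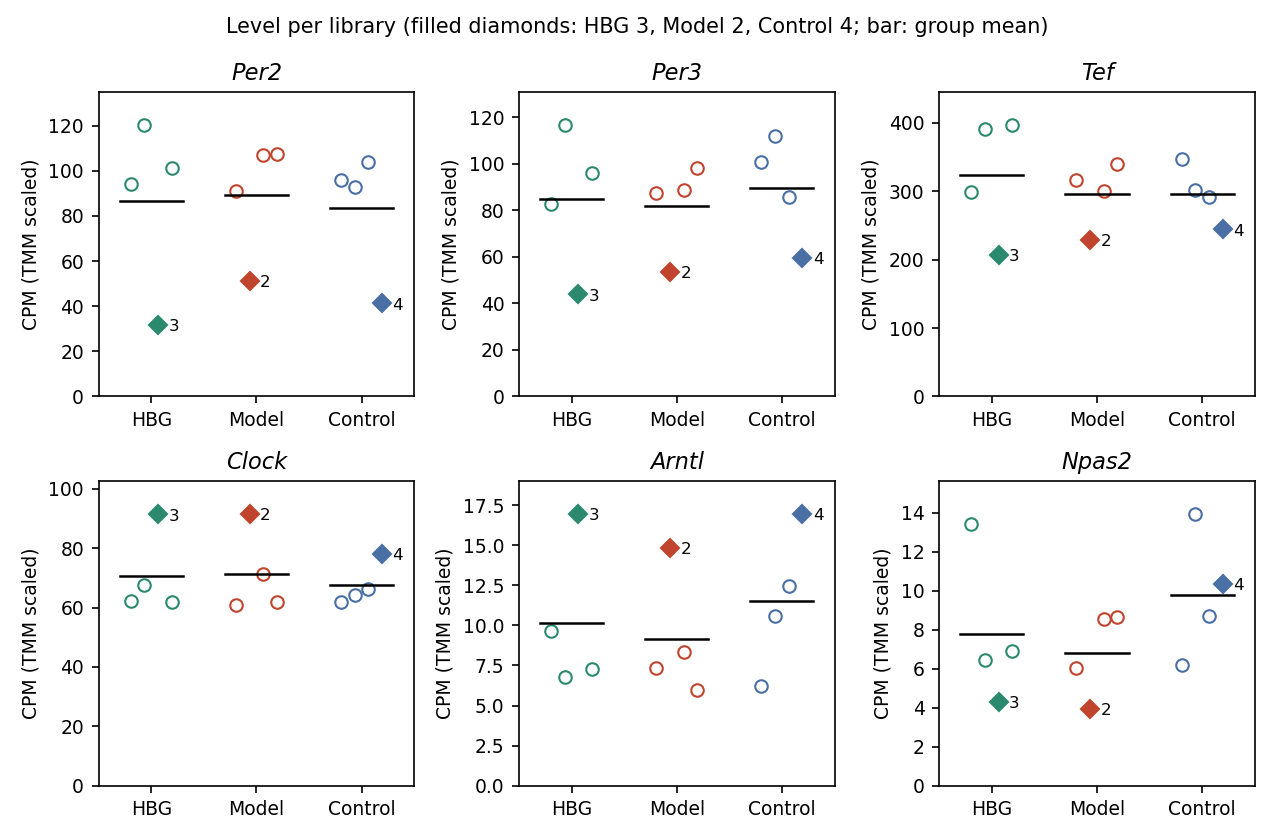
CPM per library (vertical axis, from 0) of Per2, Per3, Tef, Clock, Arntl and Npas2 in HBG, Model and Control, with filled diamonds for HBG 3, Model 2 and Control 4, open circles for the other 9 and bars for group means. The diamonds are the lowest points of all groups for Per2, Per3 and Tef and the highest for Clock and Arntl, while for Npas2 they range from 3.93 to 10.4 CPM.

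HBG 3, Model 2 and Control 4 therefore held the 3 lowest values for Per2, Per3 and Tef and the 3 highest for Clock, that is for 3 and 1 of the 10 genes. Over all 17827 genes tested, these libraries held the 3 lowest values for 4.49% and the 3 highest for 5%, and since the genes were chosen on this pattern nothing is read from the difference. Of 18 other tested clock genes, 4 had their 3 lowest values there. Among them were Cry1, a partner of the PER proteins, Cipc, an inhibitor of CLOCK, and the E-box repressor Bhlhe41. Cry1 had 16.7, 16.4 and 14.7 CPM in HBG 3, Model 2 and Control 4 and 21.5 to 30.8 CPM in the others. Cry2 had 53.1, 69.9 and 64.3 CPM in the same 3 libraries, inside or just below the 59.3 to 82.6 CPM of the rest. Of 9 clock output genes, Tspan4 and Cdkn1a were lowest and Nampt, an enzyme of NAD synthesis, highest in these 3. Cdkn1a, the cell cycle inhibitor p21, had 73.4, 174 and 55.3 CPM there and 476 to 751 CPM in the other 9. The lists of other clock genes and outputs were also chosen with earlier results of these data known, so nothing is read from their counts.

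A ratio within a library does not depend on its scaling. The ratio of Per2 to Arntl in CPM was 1.87 in HBG 3, 3.45 in Model 2 and 2.43 in Control 4, and 8.33 to 18.0 in the other 9 libraries. The ratio of Per3 to Clock was 0.480, 0.584 and 0.760 in these 3 libraries and 1.25 to 1.74 in the others. Each ratio sets a gene with its 3 lowest values in HBG 3, Model 2 and Control 4 over a gene with its 3 highest there, so their separation follows from the levels already given. Among the other 9 the Per2 to Arntl ratio was highest in Model 4, which also had the highest Nr1d1 and the lowest Arntl, and lowest in Control 3, at 8.33. A summary that set all 8 genes from Per1 to Ciart against the mean of Npas2 and Clock, as a difference of mean relative log2 CPM, did not separate the 3 libraries. It was -0.30 in HBG 3, 0.07 in Model 2 and -0.73 in Control 4, and from -0.55 to 0.58 in the others. Leaving out any 1 of the 9 genes other than Npas2 kept the ranges overlapping, and the lowest of the 9 libraries minus the highest of the 3 was between -1.77 and -0.44. Only with Npas2, which had been seen not to follow Clock, left out did they not overlap, at most -0.59 in the 3 libraries and at least -0.19 in the others. Clock alone then stood against 8 genes that include Per2, Per3 and Tef. This separation too follows from the levels already given, and nothing is read from it.

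**Figure D3:**
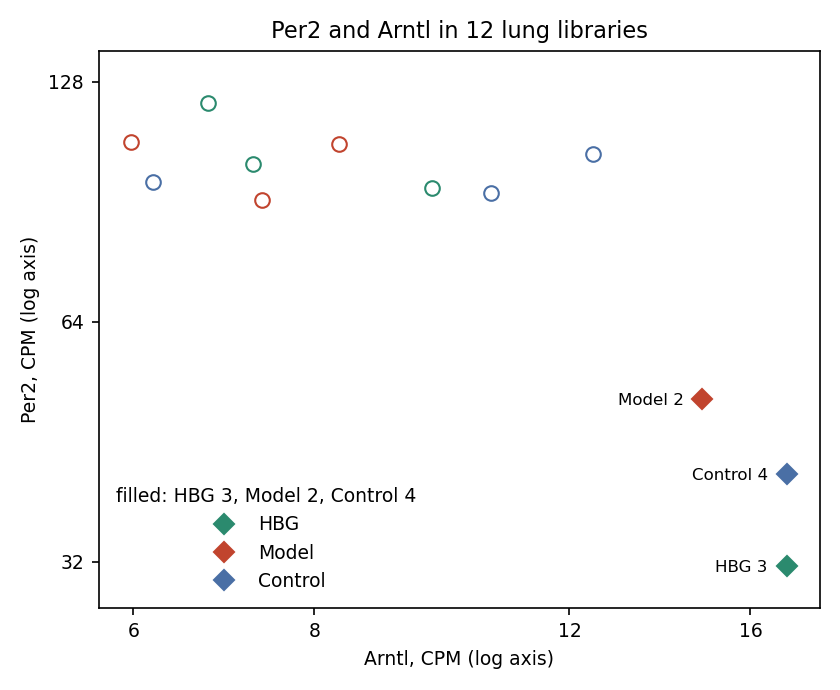
Per2 (vertical) against Arntl (horizontal), both in CPM on log axes, with 1 point for each of the 12 libraries, coloured by group and filled for HBG 3, Model 2 and Control 4. These 3 sit at the lower right, with Per2 at 31.6 to 51.2 CPM and Arntl at 14.8 to 17.0 CPM, and the other 9 lie above 90.9 CPM of Per2.

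Summed markers of other cells were also read in the same 3 libraries. Erythrocyte genes summed to 4450 CPM in HBG 3, 5657 in Model 2 and 4398 in Control 4, next to 268 to 4381 CPM in the other 9. Endothelial genes summed to 2897, 2827 and 1829 CPM, next to 673 to 1878 CPM, so Control 4 lay inside that range. Of these genes, Cldn5 had 263 CPM in HBG 3, 265 in Model 2 and 308 in Control 4. Control 4 was its lowest Control library, and it reached 435 CPM in Control. Epithelial markers were at 36560 CPM in HBG 3, 34846 in Model 2 and 60783 in Control 4, and macrophage markers at 917, 1078 and 466 CPM. Both lay within the range of the other 9 taken over all groups. Within groups, the epithelial sum was lowest in Model 2 and in Control 4. In HBG 3 it lay above only HBG 1, at 29951 CPM. The part of these cell markers in the clock gene levels was not tested.

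Likeness to other genes was measured as the root mean square difference of relative log2 CPM over the 12 libraries, among 15884 genes of at least 1 CPM on average. Within the 10, the closest pair was Nr1d2 and Tef (0.19), followed by Per3 and Tef (0.20) and by Per2 and Per3 (0.26), and the least alike were Per2 and Nr1d1 (0.94). Nr1d2 varied little, with an SD of 0.22 in log2 CPM over the 12 libraries. A gene with no variation would thus be nearly as close to it as Tef, and Clock was at 0.36 from it. Nearest to Dbp were Lpar3 (0.22), Gstm6 (0.23), Notum (0.25), Elf5 (0.25), 4931440P22Rik (0.25) and Cbr2 (0.25), where a gene with no variation would be at 0.45. Nearest to Npas2 were Zbbx (0.20), Apobec4 (0.22), Ppm1e (0.23), Ribc1 (0.24), Med12l (0.24) and Car11 (0.24), where a gene with no variation would be at 0.54. Scgb1a1, the secretory airway cell marker, had 17537, 32834, 18916 and 47717 CPM in HBG 1 to 4, 30121, 16258, 31884 and 27528 CPM in Model 1 to 4 and 45208, 43180.3, 61043 and 43198 CPM in Control 1 to 4. It was higher in each Control library than in at least 7 of the 8 HBG and Model libraries, and its part in the Dbp level was not tested. Clock was at 0.68 from Npas2. Foxj1, a regulator of ciliated airway cells, had 312, 152, 64.3 and 220.4 CPM in HBG 1 to 4, 176, 110.1, 176 and 224 CPM in Model 1 to 4 and 172, 268, 242 and 178 CPM in Control 1 to 4. Foxj1 was lowest in HBG 3 and Model 2 and highest in HBG 1 and Control 2, as was Npas2, and its part in the Npas2 level was not tested.

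**Figure D4:**
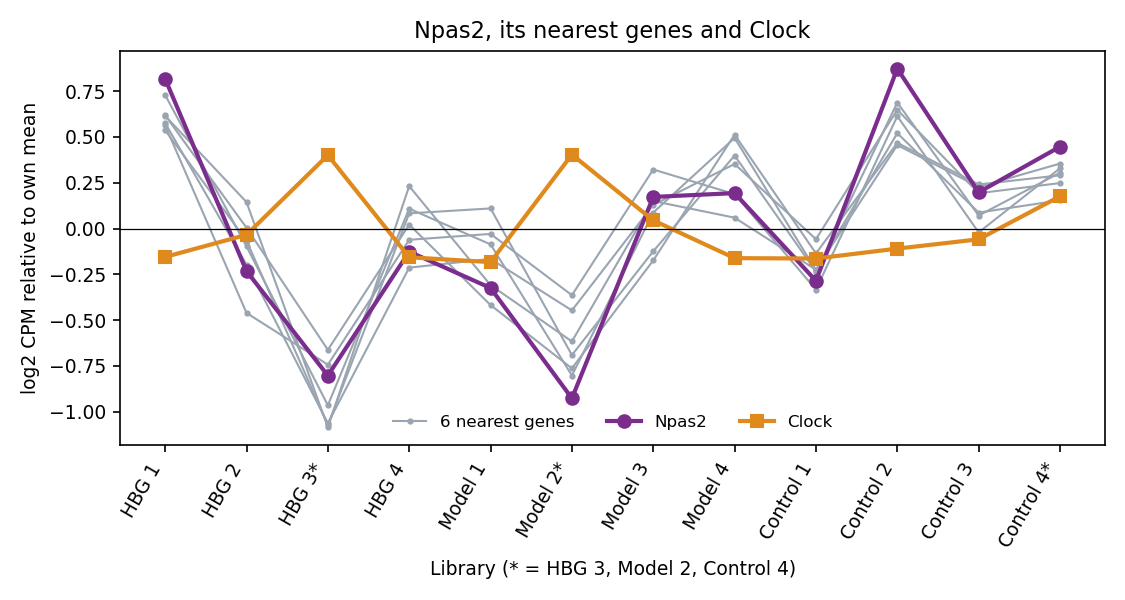
Relative log2 CPM (vertical axis) of Npas2, its 6 nearest genes and Clock over the 12 libraries (horizontal axis), each line being 1 gene set to its own mean. Npas2 and its nearest genes are low in HBG 3 and Model 2 and above their means in Control 4, while Clock is above its mean in all 3.

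The treatment groups were then compared. The question was whether transcript levels differed after bleomycin, with granules added to bleomycin, and between the granule group and Control. Model libraries had lower mean levels of Dbp and Npas2 than Control, and the other 8 genes had log2 fold changes between -0.13 and 0.15. None of the 10 passed the edgeR quasi-likelihood test in Model against Control, and 0 reached an unadjusted p under 0.05, where 0.348% and 11.7% of all genes did. DESeq2, with its own filter on low counts, also called 0 and called 2.12% of its genes. Limma-voom with sample weights called 1, Dbp, where it called 6.05% of all genes. Dbp averaged 62.0 ± 25.1 CPM in Model and 91.9 ± 21.7 CPM in Control (SD, n = 4 each), and the log2 fold change was -0.57 ± 0.27 (SE; adjusted p = 0.449 in edgeR). Its Model libraries spanned 43.5 to 97.1 CPM and its Control libraries 65.9 to 118 CPM, so the groups overlapped, and without Model 4 the log2 fold change was -0.87 (edgeR adjusted p = 0.134). With limma-voom the log2 fold change was -0.83 (adjusted p = 0.0403), and over all alternatives the adjusted p ran from 0.0403 to 0.692. Npas2 averaged 6.79 ± 2.26 CPM in Model and 9.80 ± 3.25 CPM in Control, with -0.53 ± 0.37 as the log2 fold change (SE; adjusted p = 0.611 in edgeR). It was -0.34 without Model 2, -0.32 without Control 2 and -0.23 with limma-voom. The largest positive value was that of Nr1d1, at 134 ± 81.1 CPM in Model and 121 ± 36.4 CPM in Control, a log2 fold change of 0.15 ± 0.39 (SE) that was -0.31 without Model 4, -0.037 without Control 2 and 0.40 without Model 3.

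Per2 averaged 89.2 ± 26.5 CPM in Model and 83.5 ± 28.5 CPM in Control, Per3 82.0 ± 19.6 and 89.4 ± 22.7 CPM, and Clock 71.4 ± 14.2 and 67.6 ± 7.30 CPM (SD, n = 4 each). Without Model 2 and Control 4, Per2 averaged 102 CPM in Model and 97.5 CPM in Control, Per3 91.5 and 99.4 CPM, and Clock 64.7 and 64.1 CPM. Per1 averaged 140 ± 53.9 CPM in Model and 136 ± 67.3 CPM in Control, and 116 and 166 CPM without these libraries. In none of the 10 genes did the 4 Model libraries separate from the 4 Control libraries, which 8.71% of all genes did.

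Between HBG and Model no direction was common to the 10 genes. Log2 fold changes of HBG against Model in edgeR ran from -0.26 for Ciart to 0.19 for Npas2, with SE of up to 0.39. With limma-voom they ran from -0.15 for Ciart to 0.57 for Nr1d1, which was -0.14 ± 0.39 (SE) in edgeR and 0.31 without Model 4. Ciart averaged 11.9 ± 3.89 CPM in HBG and 14.3 ± 2.83 CPM in Model (SD, n = 4 each), and its log2 fold change was -0.26 ± 0.24 (SE). It was -0.082 without HBG 3, -0.15 without Model 3 and -0.41 without HBG 2. Npas2 averaged 7.76 ± 3.93 CPM in HBG and 6.79 ± 2.26 CPM in Model, and its log2 fold change was -0.21 without HBG 1, 0.0042 without Model 2 and 0.39 without HBG 3. edgeR called 0 of the 10 in HBG against Model, with 0 at an unadjusted p under 0.05, DESeq2 and limma-voom called 0 too, where DESeq2 called 0.00876% of its genes and limma-voom 0%. Of all genes 0% passed in edgeR and 2.43% had such an unadjusted p. Per2 averaged 86.8 ± 38.5 CPM in HBG and 89.2 ± 26.5 CPM in Model, and Tef 323 ± 89.7 and 296 ± 48.0 CPM. None of the 10 separated these groups, against 1.13% of all genes.

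Against Control, HBG showed a lower mean of Dbp too, 66.2 ± 15.8 CPM in HBG and 91.9 ± 21.7 CPM in Control (SD, n = 4 each), and the log2 fold change was -0.47 ± 0.27 (SE; adjusted p = 0.668 in edgeR). This comparison shares its Control libraries with Model against Control. For Dbp the value was -0.34 without Control 1, -0.62 without HBG 4 and -0.32 with limma-voom. Ciart and Npas2 were also lower in HBG, with log2 fold changes of -0.35 ± 0.24 and -0.33 ± 0.37 (SE). The highest log2 fold change was that of Tef, 0.13 ± 0.20 (SE), with 323 ± 89.7 CPM in HBG and 296 ± 42.0 CPM in Control. It was 0.29 without HBG 3, 0.025 without HBG 2, 0.014 without HBG 4 and 0.036 without Control 4. edgeR called 0 of the 10, with 0 at an unadjusted p under 0.05, where it called 0.151% of all genes and 8.25% had such an unadjusted p. DESeq2 and limma-voom called 0 of the 10, and 0.976% and 0.567% of the genes each tested. None of the 10 separated HBG from Control, which 6.33% of all genes did.

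The median log2 fold change of the 10 genes was -0.04 in Model against Control, 0.02 in HBG against Model and -0.04 in HBG against Control, and that of all genes tested was 0.01, 0.00061 and 0.0061. Of 18 other clock genes and 9 outputs, edgeR called 0 in each of the 3 comparisons, with 1 gene at an unadjusted p under 0.05 in Model against Control, and none in the other comparisons. That gene was Gsk3b, a kinase that acts on clock proteins, at 109 ± 13.8 CPM in Model and 91.6 ± 5.93 CPM in Control (edgeR adjusted p = 0.427). Its 4 Model libraries lay above its 4 Control libraries. Arntl averaged 10.1 ± 4.70 CPM in HBG, 9.12 ± 3.92 CPM in Model and 11.6 ± 4.46 CPM in Control, and Cry1 25.9 ± 6.25, 23.5 ± 5.84 and 22.7 ± 5.93 CPM in the same order. Nfil3, a repressor at D-boxes, averaged 11.6 ± 2.79, 13.9 ± 4.09 and 17.5 ± 9.90 CPM, with 31.5 CPM in Control 2. Tsc22d3 averaged 355 ± 122, 333 ± 85.7 and 353 ± 109 CPM, and Tspan4 57.7 ± 9.92, 64.1 ± 18.0 and 56.6 ± 16.02 CPM.

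**Figure D5:**
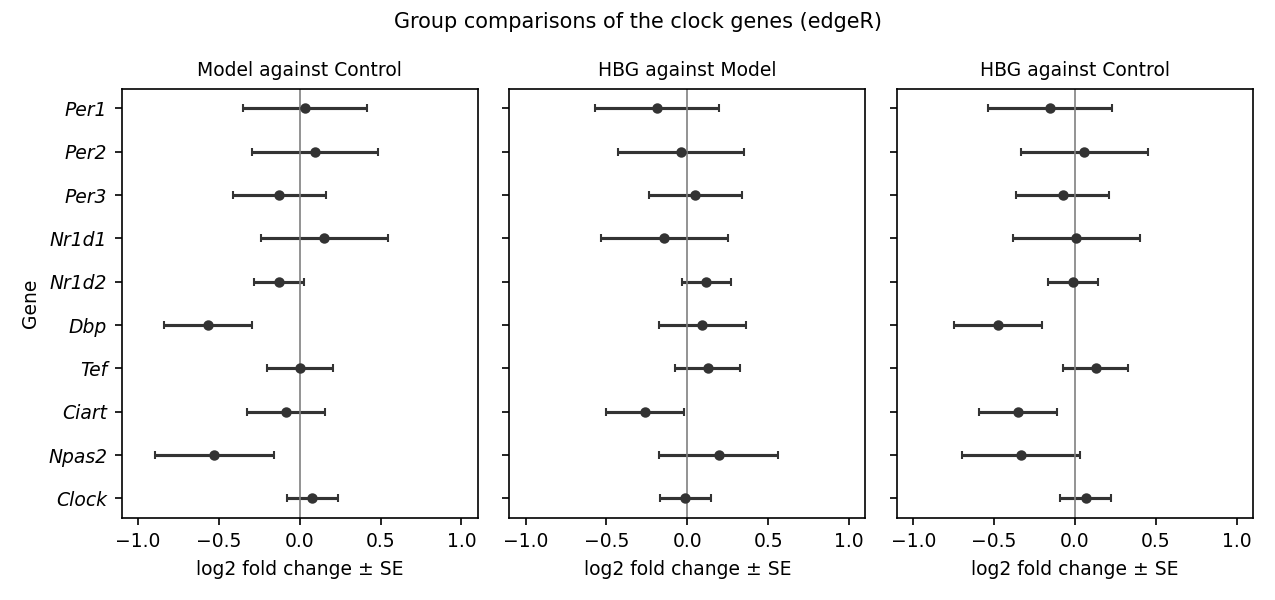
Log2 fold changes (horizontal axis, points) with their SE (bars) for the 10 clock genes (rows) in the 3 group comparisons, from edgeR fitted to all 12 libraries. No gene passed the adjusted threshold, and the value farthest from 0 is that of Dbp in Model against Control, at -0.57.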

How the data were processed

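The authors deposited a single table of estimated counts per gene, a unit read from the values, since 10.0% to 15.1% of them were not whole. Per the submitters' processing notes, the tools named are cutadapt, DESeq2 1.34.0, fastp, FastQC 0.11.9, featureCounts 2.0.1, HISAT2, HTSeq, STAR 2.7.9a and Trimmomatic 0.39, with builds GRCm39 and mm10 and no role or order. Per the labels' protocols, a TruSeq stranded mRNA kit was used and pairs of 150 bases were read. Gene length comes from the deposited table and was used for CPM per kb. Counts were rounded, scaled by TMM and filtered with filterByExpr, which kept 17827 genes. edgeR 4.0.16 (R 4.3.3, limma 3.58.1) fitted the group in all 12 libraries, and two-sided p-values were adjusted by Benjamini-Hochberg over all genes, with a threshold of 0.05. Standard errors derive from the F statistic. A count of 0 allows up to 3 counts, 0.110 to 0.167 CPM, which covers counting error only. Relative log2 CPM used a prior count of 2. The labels do not state that each library is a different mouse; p-values then cover only the spread among these samples, possibly technical. No pair within a group agreed within sampling noise (chi-square per degree of freedom 16.4 to 141). Tests were tried on simulated counts. Alternatives were RLE and upper-quartile factors, DESeq2 1.42.0, voom in limma with weights for sample quality, other filters, a fit of the groups compared only, the replicate number as a block, a GC and length correction (GC known for 98.1% of tested genes), and libraries left out. The genes, lists and tests were chosen with earlier results of these data known. Genes named beyond the 10 follow a rule: 11 other clock genes and outputs, any that passed a test, and the 6 nearest genes to Dbp and to Npas2. Outside this rule, Cipc, Nampt, Gsk3b, Noct, Rbm3 and Cirbp are named from the lists after their values were seen. Scgb1a1, Foxj1, Cldn5, Fkbp5, Mt1 and Mt2, taken from the marker and response lists, are outside it too. Some genes of these lists are not reported here.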

Additional observations from a re-analysis of the deposited data

Results flagged for a closer look

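Of 63 gene and group combinations examined (the 10 genes and 11 other clock genes in 3 groups of 4), 3 had a library far from its group. This was judged by its gap to the nearest library relative to the group's range. Chance flags about 1 in 20, close to the share found here. Hlf was at 57.1 CPM in Model 4, against 28.5 to 31.96 CPM in the other Model libraries. Usp2, a deubiquitinase with a daily rhythm in many tissues, was at 33.5 CPM in Model 4, against 18.4 to 18.9 CPM in the other Model libraries, and at 32.5 CPM in Control 2, against 19.2 to 21.3 CPM in the other Control libraries.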

How the results depend on the processing

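No alternative called any of the 10 genes except limma-voom, which called 1, Dbp, in Model against Control. Of the 30 fold changes, 20 changed sign under at least 1 alternative, none of them over 0.19 in absolute log2 value. Nr1d1 in Model against Control was -0.56 with limma-voom and -0.31 to 0.40 with 1 library left out. Nr1d1 in HBG against Model was 0.57 with limma-voom and -0.39 to 0.31 with 1 library left out. Npas2 in HBG against Model was -0.069 with limma-voom and -0.21 to 0.39 with 1 library left out. Over all genes, Model against Control gave 62 calls (9 higher, 53 lower), 417 with DESeq2 (181 higher, 236 lower), 1079 with limma-voom (620 higher, 459 lower), 25 with the replicate block and 23 to 67 with 1 library left out (33 higher, 34 lower without Model 4). HBG against Control gave 27 calls, 198 with DESeq2, 101 with limma-voom, 17 with the replicate block and 16 to 25 with 1 library left out. HBG against Model gave 0, 3 with DESeq2, 0 with limma-voom and 0 with the replicate block. The labels do not state that same replicate numbers pair animals, and overlapping ranges of correlation cannot show whether they do. Deviations of same-numbered libraries correlated from -0.357 to 0.481 over 12 pairs, and those of other pairs from -0.491 to 0.532. These are deviations from the group means over all genes tested. The highest was HBG 3 with Model 2, while Model 2 with Control 4 gave 0.457 and HBG 3 with Control 4 gave 0.373. Pairs outside these 3 libraries reached similar values, such as 0.481 for HBG 4 with Model 4 and 0.3975 for HBG 1 with Control 2. Correlations of this size over all genes tested were thus not particular to these 3. The gap between the 3 named libraries and the other 9, in the difference between the limbs, was -0.62, meaning overlap, 0.41 with Npas2 left out and -1.77 with Clock left out. With Npas2 left out, Clock stood alone on its side, so nothing is read from that gap. The cause of these shifts was not tested. The gaps of Per2, Per3, Tef, Clock, Arntl and Cry1 kept their sign with RLE factors and with library totals alone. With HBG 3, Model 2 and Control 4 left out together, 0 of the 10 genes were called in any comparison, and over all genes 46 were called in Model against Control, 0 in HBG against Model and 22 in HBG against Control.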

Other observations

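Other transcripts of the clock output list differed between the same libraries without separating them. Noct, a deadenylase-like phosphatase with a daily rhythm in many tissues, had 146 CPM in HBG 3, 160 CPM in Model 2 and 108 CPM in Control 4, against 66.6 to 112 CPM in the other 9 libraries. The cold-inducible RNA-binding genes Rbm3 and Cirbp were at 238, 213 and 236 CPM and at 52.1, 66.0 and 79.6 CPM in the same 3 libraries, against 127 to 241 CPM and 42.5 to 72.4 CPM in the others.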
